A study of Mus musculus with 6 samples.

Results

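The 4 Nuclear factor I genes, Nfia, Nfib, Nfic and Nfix, were read by 23 of the 45037 probe sets measured on arrays of sorted mouse hematopoietic stem cells (HSCs). A probe set is a group of short oligonucleotides on the array that together give 1 intensity for a transcript. Members were all probe sets that the platform annotation assigns to 1 of these 4 symbols, which gave 6 for Nfia, 7 for Nfib, 5 for Nfic and 5 for Nfix. The family was chosen by the genotype difference of a probe set of Nfia, the intensities of PU.1 ki/ki against wild type. Every genotype difference of the family below is therefore a description and carries no test.

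Adult mice homozygous for a PU.1 knock-in allele (PU.1 ki/ki) gave 3 arrays, and adult wild-type mice gave 3. The cells of both groups had been sorted as negative for lineage markers and CD48 and positive for Sca1, cKit and CD150, which enriches for the longest-lived HSCs. The gene Spi1 encodes PU.1, a factor of the ETS family, and the comparison asked which transcripts differ in HSCs of the knock-in mice. The labels do not say what the allele changes, how many animals an array holds, or their sex, so the spread between arrays may be technical, and a free-text field that speaks of early embryos goes against every other label and was set aside.

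Nuclear factor I proteins bind DNA as dimers of any of the 4 members, through a conserved N-terminal domain, and recognise a palindrome of TTGGC and its reverse complement. In mice Nfix is known to favour survival and engraftment of transplanted stem and progenitor cells. In human progenitors NFIA is known to favour the erythroid over the granulocytic fate, and in human monocyte differentiation PU.1 is known to induce a microRNA that represses it. Nfib is best known from mouse lung and brain development and Nfic from mouse tooth root formation.

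The wild-type arrays stood apart from one another more than the PU.1 ki/ki arrays did. Loss of bright signal was counted per array, over probe sets with a median of 512 or more on the other 5 arrays, as a value 4-fold or further under that median. The PU.1 ki/ki arrays had lost 0.119 to 0.219% of bright probe sets, and wild-type replicates 1, 2 and 3 had lost 1.12%, 11.5% and 11.3%. The difference of each probe set of Nfia, Nfic and Nfix is therefore also given below with wild-type replicate 1 as the only wild-type array. No spread between wild-type arrays is left there. On each array only 5 of the 23 probe sets of the family were bright enough to be counted. Of these 1, of Nfic, was lost, on wild-type replicate 3. Spi1 read 170, 212 and 161 in PU.1 ki/ki, against 158, 195 and 199 in wild type, a log2 difference of -0.03 ± 0.18 (SE, limma adjusted p = 0.992, two-sided exact permutation p = 1, where 3 against 3 arrays allow no p below 0.1). This transcript therefore did not check the label.

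The start-site windows of the genes are shown because the groups differ in an allele of an ETS factor, whose family binds around a GGAA core. Each holds 250 bases before and 50 after a start site listed for the gene in build GRCm38.p6, written 5′ to 3′ along the gene. Capitals mark each GGAA core (TTCC where it lies on the other strand). No window was at hand for Nfib. All 6 windows of the family lie inside the RefSeq span of their gene and not at its outermost 5′ end. That end is at 97578066 for Nfia, 81431919 for Nfic and 84801238 for Nfix, so the counts below describe internal start sites. The window of Nfia, the gene that led to the choice of the family, lies at chr4:97581693-97581992 on the plus strand, that of Nfic at chr10:81427124-81427423 on the minus strand, and 1 of 4 for Nfix at chr8:84775779-84776078 on the minus strand.
Nfia: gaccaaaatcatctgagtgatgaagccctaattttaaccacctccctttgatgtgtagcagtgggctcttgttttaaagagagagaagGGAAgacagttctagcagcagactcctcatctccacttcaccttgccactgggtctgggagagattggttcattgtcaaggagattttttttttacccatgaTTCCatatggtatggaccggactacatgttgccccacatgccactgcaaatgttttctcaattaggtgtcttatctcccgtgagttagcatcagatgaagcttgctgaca
Nfic: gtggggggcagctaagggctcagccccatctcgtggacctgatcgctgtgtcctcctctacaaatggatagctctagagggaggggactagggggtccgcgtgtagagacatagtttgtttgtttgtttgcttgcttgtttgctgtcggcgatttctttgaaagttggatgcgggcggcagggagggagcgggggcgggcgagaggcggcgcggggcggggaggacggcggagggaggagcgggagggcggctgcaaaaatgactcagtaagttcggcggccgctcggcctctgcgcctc
Nfix: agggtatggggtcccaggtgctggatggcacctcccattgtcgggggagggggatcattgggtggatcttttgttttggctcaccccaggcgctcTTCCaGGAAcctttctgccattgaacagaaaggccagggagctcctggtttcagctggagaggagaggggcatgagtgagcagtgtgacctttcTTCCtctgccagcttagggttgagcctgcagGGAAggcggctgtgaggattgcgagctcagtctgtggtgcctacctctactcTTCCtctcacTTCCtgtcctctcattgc
The Nfia window held 2 GGAA cores, at bases 89 to 92 and 191 to 194, the Nfix window shown held 6, and the Nfic window held 0. The Nfix window shown is the one with the most cores, and the other 3 windows of Nfix held 2, 4 and 3. Over all 32851 windows of this length in the table, 96.0% held at least 1 core on either strand. The longer letters GAGGAA, which contain the core and are shared by many PU.1 sites, stood in 28.3% of all windows. They were in 0 of 1 window of Nfia, 0 of 1 of Nfic and 3 of 4 of Nfix. In the Nfix window shown they occurred 2 times on the other strand, at bases 190 to 195 and 273 to 278. The letters TTGGC were in 46.7% of all windows and in 3 of the 4 of Nfix, and the whole palindrome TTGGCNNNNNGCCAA was in 0.0365% of all and in 0 of these 6. A match of letters is a description of the window and shows no binding.

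Of the 4 genes Nfib alone was dim on all 7 of its probe sets, at 10 to 48, where 10 is the table's minimum value. Every probe set of Nfia, Nfic and Nfix read 40 or more on every array. A filter that leaves out probe sets whose mean log2 level is below the median of all, an intensity of 44.7, was passed by all 6 of Nfia, all 5 of Nfic, all 5 of Nfix and 0 of 7 of Nfib. The highest single values were 841 for Nfia, 48 for Nfib, 3255 for Nfic and 2197 for Nfix. Levels of different probe sets depend on their own oligonucleotides and give no order between the genes.

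**Figure D1:**
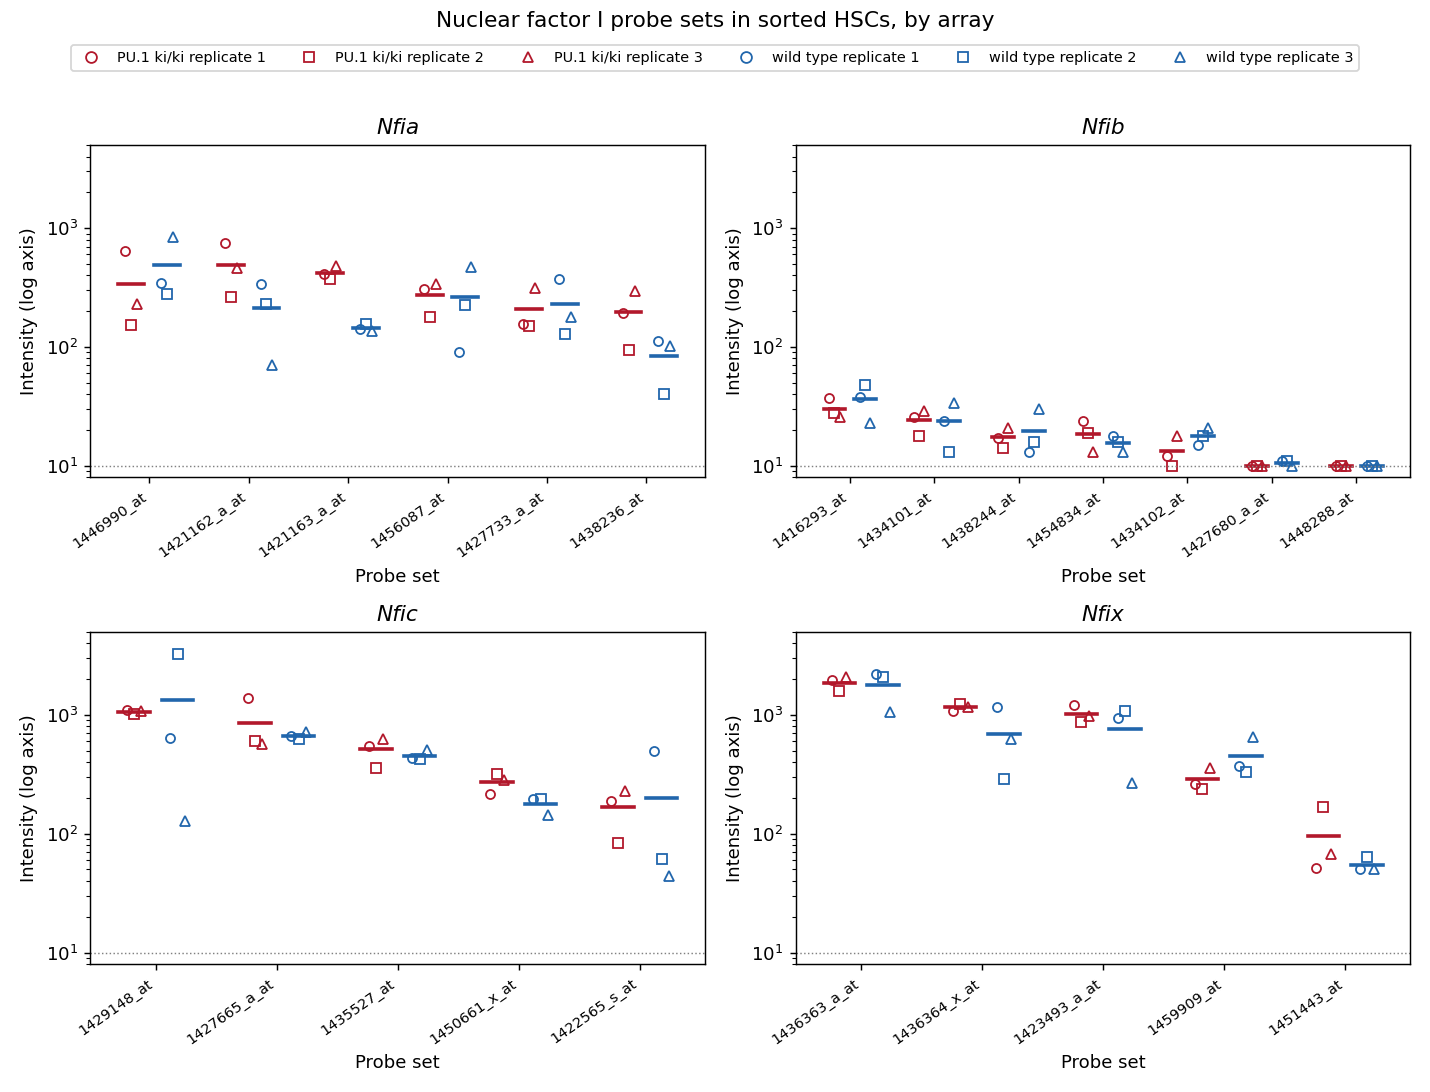
Intensity (log axis) of each of the 23 probe sets on each array, with PU.1 ki/ki in red left of wild type in blue, marker shapes for replicates, bars at group means and a dotted line at the minimum of 10. The probe set 1421163_a_at of Nfia keeps its groups apart, the groups of most others overlap, and Nfib stays at 48 or below.

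Among the probe sets of Nfia, 1421163_a_at had the largest difference and the least spread. It read 409, 373 and 477 in PU.1 ki/ki HSCs, against 141, 155 and 137 in wild-type HSCs. All 3 PU.1 ki/ki values lay above all 3 wild-type values, and neither group spanned more than 1.28-fold. The means were 420 ± 52.8 in PU.1 ki/ki HSCs, against 144 ± 9.45 in wild-type HSCs (SD, n = 3 each), a log2 difference of 1.53 ± 0.15 (SE), or 2.88-fold. It lay between 1.43 and 1.61 when any single array was left out, and at 1.56 against wild-type replicate 1 alone. After a further quantile normalization it was 1.34.

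A second probe set of Nfia, 1421162_a_at, comes from the same source sequence in the annotation and gave a noisier picture. It read 743, 263 and 465 in PU.1 ki/ki HSCs, against 341, 231 and 70 in wild type. The groups overlapped, since PU.1 ki/ki replicate 2 lay below wild-type replicate 1. Its log2 difference was 1.34 ± 0.72 (SE), 0.68 without wild-type replicate 3 and 0.40 against wild-type replicate 1 alone. Names ending in _a_at mark probe sets whose oligonucleotides match several transcripts of 1 gene, and which transcripts each of the pair reads is not given in the files.

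The other 4 probe sets of Nfia went both ways and all overlapped between groups. The probe set 1438236_at read 193, 94 and 298 in PU.1 ki/ki, against 112, 40 and 102 in wild type, a log2 difference of 1.18 ± 0.60 (SE), and 0.64 against wild-type replicate 1 alone. Wild-type replicate 2 was the low value of this probe set, and without it the difference was 0.71. The probe set 1446990_at, which has the highest mean log2 level of the 6, read 637, 152 and 230 in PU.1 ki/ki, against 342, 277 and 841 in wild type, a log2 difference of -0.61 ± 0.70. Both groups of it spread over 3-fold, and its highest value was on wild-type replicate 3, without which the difference was -0.13. It was -1.20 without PU.1 ki/ki replicate 1, -0.17 without PU.1 ki/ki replicate 2 and -0.28 against wild-type replicate 1 alone.

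The probe set 1456087_at of Nfia read 305, 178 and 341 in PU.1 ki/ki, against 91, 226 and 471 in wild type. Its wild-type values reached both above and below those of PU.1 ki/ki, so that the log2 difference of 0.31 was -0.30 without wild-type replicate 1, 0.88 without wild-type replicate 3 and 1.53 against replicate 1 alone. The probe set 1427733_a_at read 155, 151 and 315 in PU.1 ki/ki, against 376, 128 and 179 in wild type, a difference of -0.07 that was 0.36 without wild-type replicate 1 and -0.95 against that array alone. Wild-type replicate 1 thus was the lowest array on the first and the highest on the second. Averaged over the 6 probe sets the log2 difference of Nfia was 0.61. Their median was 0.74, and 0.52 against wild-type replicate 1 alone.

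**Figure D2:**
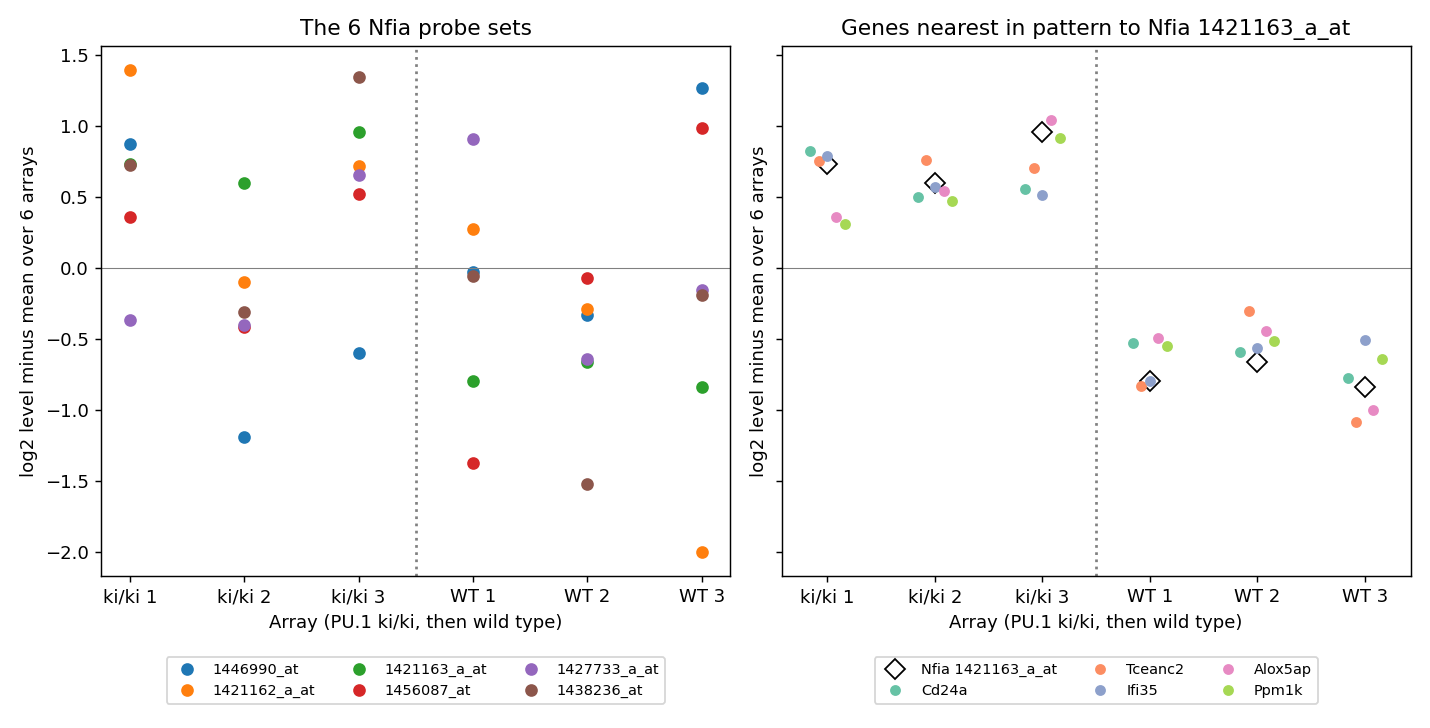
Log2 level minus the mean over the 6 arrays, for the 6 Nfia probe sets on the left and, on the right, for Nfia 1421163_a_at with the 5 genes nearest to it in pattern, PU.1 ki/ki arrays left of wild type. On the left only 1421163_a_at has all PU.1 ki/ki arrays above all wild-type arrays. Wild-type replicate 3 is the highest array for 1446990_at and 1456087_at and the lowest for 1421162_a_at and 1421163_a_at.

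The pattern of 1421163_a_at was closest to that of Cd24a, a small surface glycoprotein of developing blood cells. Likeness was the root mean square difference of log2 levels, each centred on its mean over the 6 arrays, among 8612 genes with a mean intensity of at least 100 on their brightest probe set. It was 0.208 for Cd24a, 0.216 for Tceanc2, 0.230 for Ifi35, an interferon-induced gene, 0.230 for Alox5ap, which encodes the 5-lipoxygenase activating protein of leukotriene synthesis, and 0.231 for Ppm1k, a mitochondrial phosphatase. Cd24a read 4216, 3368 and 3503 in PU.1 ki/ki, against 1653, 1580 and 1391 in wild type. Alox5ap read 1266, 1437 and 2033 in PU.1 ki/ki, against 701, 727 and 493 in wild type. Since the pattern was chosen for its separation of the groups, genes close to it separate them too. With 1 minus Pearson's correlation as the measure, 0 of these 5 were among the nearest 5.

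Nfic had higher mean log2 levels in PU.1 ki/ki on all 5 of its probe sets, by 0.13 to 0.72. The direction depended on the scale for 1429148_at and 1422565_s_at. Their mean intensities were lower in PU.1 ki/ki, at 1066 against 1339 and 167 against 199 in wild type. The groups of Nfic overlapped on 4 of the 5. The exception, 1450661_x_at, read 217, 316 and 285 in PU.1 ki/ki, against 195, 195 and 145 in wild type. The lowest PU.1 ki/ki value lay just above the highest wild-type value. The log2 difference was 0.61 ± 0.22 (SE), with 0.46 to 0.76 with 1 array left out and 0.46 against wild-type replicate 1 alone. After a further quantile normalization the difference was 0.41 and the groups overlapped. Names ending in _x_at mark probe sets in which some oligonucleotides also match other sequences, so this signal may not be from Nfic alone.

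The probe set 1422565_s_at of Nfic comes from the same source sequence as 1450661_x_at and did not share its pattern. It read 188, 83 and 229 in PU.1 ki/ki, against 492, 61 and 44 in wild type. Wild-type replicate 1 was highest of all 6 arrays and the other wild-type arrays lowest, so that the log2 difference of 0.47 was 1.54 without replicate 1 and -1.68 against replicate 1 alone. The brightest probe set, 1429148_at, read 1099, 1013 and 1085 in PU.1 ki/ki, against 633, 3255 and 129 in wild type. Its PU.1 ki/ki arrays lay within 1.08-fold of each other and its wild-type arrays spanned 25.2-fold, the widest range of any member in either group. The log2 difference, 0.72 ± 1.19 (SE), was 1.89 without wild-type replicate 2 and -0.43 without wild-type replicate 3, on which the probe set counted as lost. Against wild-type replicate 1 alone it was 0.75.

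The remaining probe sets of Nfic were the steadiest in wild type. The probe set 1427665_a_at read 1379, 600 and 573 in PU.1 ki/ki, against 662, 621 and 712 in wild type, and 1435527_at read 551, 355 and 630 in PU.1 ki/ki, against 432, 425 and 507 in wild type. On both, the wild-type arrays lay inside the range of the PU.1 ki/ki arrays. Their log2 differences were 0.23 ± 0.38 and 0.13 ± 0.25 (SE), and 0.24 and 0.20 against wild-type replicate 1 alone. The first was -0.18 without PU.1 ki/ki replicate 1, and the second was -0.04 without PU.1 ki/ki replicate 3 and -0.02 after a further quantile normalization.

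Nfix, the member with a known part in mouse HSC engraftment, showed no separation of the groups on any of its 5 probe sets. The probe set with the highest mean, 1436363_a_at, read 1964, 1575 and 2064 in PU.1 ki/ki, against 2197, 2090 and 1064 in wild type. The highest and the lowest values both belonged to wild type. Its log2 difference was 0.13 ± 0.33 (SE), -0.21 without wild-type replicate 3 and -0.24 against wild-type replicate 1 alone. The probe set 1436364_x_at shares its source sequence and read 1074, 1231 and 1162 in PU.1 ki/ki, against 1154, 290 and 629 in wild type. Wild-type replicate 1 lay within the PU.1 ki/ki range there and the other wild-type arrays below it. The log2 difference of 0.95 ± 0.52 (SE) was 0.44 without wild-type replicate 2 and 0.00 against wild-type replicate 1 alone.

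Wild-type replicate 3 was the low array for 1423493_a_at of Nfix, with 1199, 876 and 981 in PU.1 ki/ki, against 941, 1068 and 268 in wild type. Its log2 difference of 0.64 was 0.01 without wild-type replicate 3, 1.01 without wild-type replicate 2 and 0.10 against wild-type replicate 1 alone. The probe set 1459909_at was the only one of Nfix with a lower mean in PU.1 ki/ki, and read 262, 238 and 359, against 368, 333 and 647 in wild type. The groups overlapped by 1 value, and the log2 difference was -0.61 ± 0.32 (SE), -0.79 to -0.31 with 1 array left out and -0.38 against wild-type replicate 1 alone. After a further quantile normalization its groups no longer overlapped. The dimmest, 1451443_at, read 51, 167 and 68 in PU.1 ki/ki, against 50, 64 and 50 in wild type, and its log2 difference of 0.61 was 0.12 without PU.1 ki/ki replicate 2 and 0.73 against wild-type replicate 1 alone.

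Nfib was dim on every array of both groups, with no value above 48. Of its 42 values 11 were at the minimum itself, and values there have no order. Its brightest probe set, 1416293_at, read 37, 28 and 26 in PU.1 ki/ki, against 38, 48 and 23 in wild type, a log2 difference of -0.21 ± 0.32 (SE). The probe set 1448288_at was at 10 on all 6 arrays, and 1427680_a_at was at 10 on all PU.1 ki/ki arrays, against 11, 11 and 10 in wild type. The other 4 probe sets read 10 to 29 in PU.1 ki/ki, against 13 to 34 in wild type, with log2 differences of -0.43 to 0.21. Differences at this level are understated by the log2(intensity + 1) scale and limited by the minimum, so no direction is given for Nfib.

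**Figure D3:**
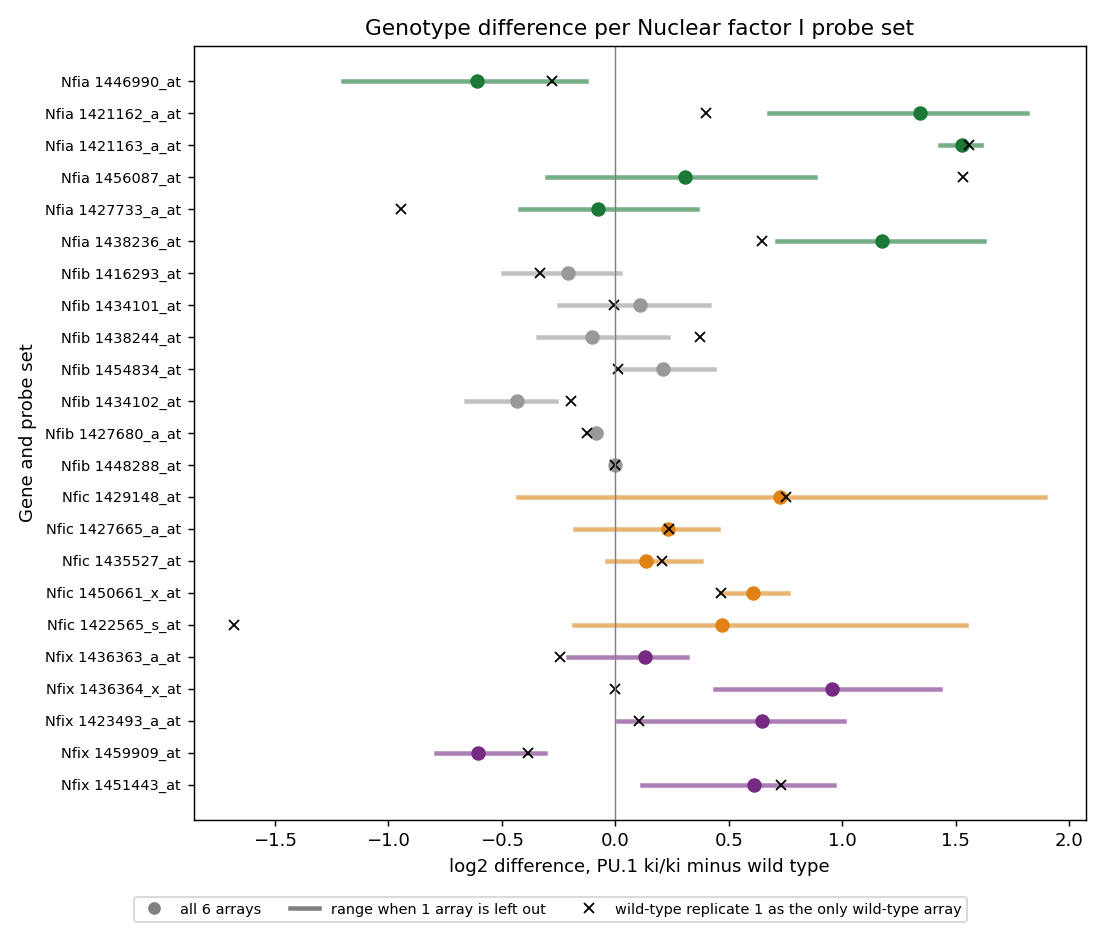
Log2 difference of PU.1 ki/ki minus wild type per probe set (dots), the range of that difference when 1 array is left out (bars) and the value with wild-type replicate 1 as the only wild-type array (crosses). Nfia 1421163_a_at stays between 1.43 and 1.61, whereas 10 of 23 bars reach the other side of 0.

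As a family, 15 of 23 probe sets had a higher and 7 a lower mean log2 level in PU.1 ki/ki, with 1 at the minimum throughout. Their median difference was 0.21, against 0.00 over all 45037 probe sets. Against wild-type replicate 1 alone the median was 0.0098, with 12 higher and 10 lower. The groups had no overlap for 2 of 23, both higher in PU.1 ki/ki, against a background of 12.1% of all probe sets, 6.62% in the higher and 5.46% in the lower direction. A log2 difference of at least 1 in size was reached by 3 of 23, all of Nfia, where 11.5% of all probe sets reached it. Nothing is read from these counts, since the genotype contrast chose the family. Of all probe sets, 0 (0%) had an adjusted p under 0.05 in limma (8.28%, or 3731, had an unadjusted p under 0.05), and an unmoderated test also called 0 (2835 at an unadjusted p under 0.05).

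The choice of the family by a genotype difference may have favoured a probe set of small spread. Nothing is therefore read from the counts of spread. The spread within groups was larger in wild type for 13 probe sets and larger in PU.1 ki/ki for 9. Over all probe sets it was larger in wild type for 71.7%. For Nfix it was larger in wild type on 4 of 5 probe sets, for Nfia on 3 of 6 and for Nfic on 2 of 5. The lowest value of the 6 arrays was on wild-type replicate 3 alone for 8 of the 23 probe sets, on wild-type replicate 2 for 4 and on replicate 2 of PU.1 ki/ki for 4. Over all probe sets, the lowest value was on these arrays alone for 23.1%, 20.1% and 8.84%.

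Genes linked to Nuclear factor I proteins in blood gave no probe set that passed the test. Of 13 entries 7 were analysed here, and 0 rose and 0 fell at an adjusted p under 0.05 over all probe sets (limma, lowest adjusted p = 0.684, 0 at an unadjusted p under 0.05, against 8.61% of all 18193 named genes). Their median log2 difference was 0.33, against 0.01 over all named genes, and 0 of 7 had groups without overlap, where 12.7% of named genes did. Among the entries not analysed here were 3 for beta-globin and the microRNA genes Mir223 and Mir322.

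Csf1r, the M-CSF receptor, read 534, 209 and 648 in PU.1 ki/ki, against 88, 465 and 107 in wild type (log2 difference 1.34, limma adjusted p = 0.684). Wild-type replicate 2 lay among the PU.1 ki/ki values. Csf3r, the G-CSF receptor and in human cells a gene repressed by NFIA, read 104, 114 and 330 in PU.1 ki/ki, against 95, 358 and 57 in wild type (0.33, adjusted p = 0.932). The beta-globin gene Hbb-b2 read 247, 94 and 177 in PU.1 ki/ki, against 139, 105 and 449 in wild type (-0.22, adjusted p = 0.947), and as a member of a multigene family its signal may come from other globin genes. All 3 overlapped between groups.

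The HSC regulators Erg and Mecom, whose expression is known to fall when Nfix is lost in mouse stem and progenitor cells, were bright in both groups. Erg read 2145, 2481 and 3114 in PU.1 ki/ki, against 3324, 4278 and 1023 in wild type (log2 difference 0.06, limma adjusted p = 1). Mecom read 2326, 1093 and 1770 in PU.1 ki/ki, against 1214, 1204 and 1428 in wild type (0.37, adjusted p = 0.753), and its 2 other probe sets had the opposite sign. Cebpa, a myeloid factor, read 65, 71 and 112 in PU.1 ki/ki, against 380, 19 and 22 in wild type (0.54, adjusted p = 0.926, and -2.23 against wild-type replicate 1 alone). On Cebpa wild-type replicate 1 was the highest array, as it was on Nfic 1422565_s_at.

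Of 15 genes linked to the family in brain, muscle and skin, all were measured and 0 rose or fell at an adjusted p under 0.05 (limma, lowest adjusted p = 0.508, 2 at an unadjusted p under 0.05, against 8.61% of all named genes). The median log2 difference was -0.01, with 7 higher and 8 lower, and 2 of 15 had groups without overlap, against 12.7% of all named genes, a share close to theirs. Nfatc4, which is repressed by Nfix in mouse fetal muscle, read 68, 53 and 58 in PU.1 ki/ki, against 40, 29 and 21 in wild type (1.01, adjusted p = 0.508), and 2 of its 3 other probe sets had the opposite sign. The muscle creatine kinase gene Ckm read 62, 54 and 70 in PU.1 ki/ki, against 53, 23 and 20 in wild type (1.06, adjusted p = 0.598, 0.21 against wild-type replicate 1 alone). The remaining 13 overlapped.

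Among the brain genes, Ezh2, the Polycomb methyltransferase that Nfib represses in mouse cortex, read 664, 801 and 716 in PU.1 ki/ki, against 869, 530 and 405 in wild type (log2 difference 0.34, limma adjusted p = 0.773). Bbx, a target of Nfix in mouse brain, read 1081, 644 and 948 in PU.1 ki/ki, against 1490, 769 and 203 in wild type (0.50, adjusted p = 0.866). Hes1, the Notch effector, read 65, 40 and 59 in PU.1 ki/ki, against 80, 31 and 42 in wild type (0.18, adjusted p = 0.923). On all 3 the PU.1 ki/ki values lay inside the wild-type range. Fabp7, Aqp4, Mmd2, Insc and Tgfb2 read below 50 on all 6 arrays, and the astrocyte gene Gfap read 23 to 42 in PU.1 ki/ki, against 33 to 94 in wild type. Log2 differences of the other genes, Gfap, Fabp7, Aqp4, Apcdd1, Mmd2, Zcchc24, Sox9, Insc, Eno3 and Tgfb2, lay between -0.73 and 0.26.

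**Figure D4:**
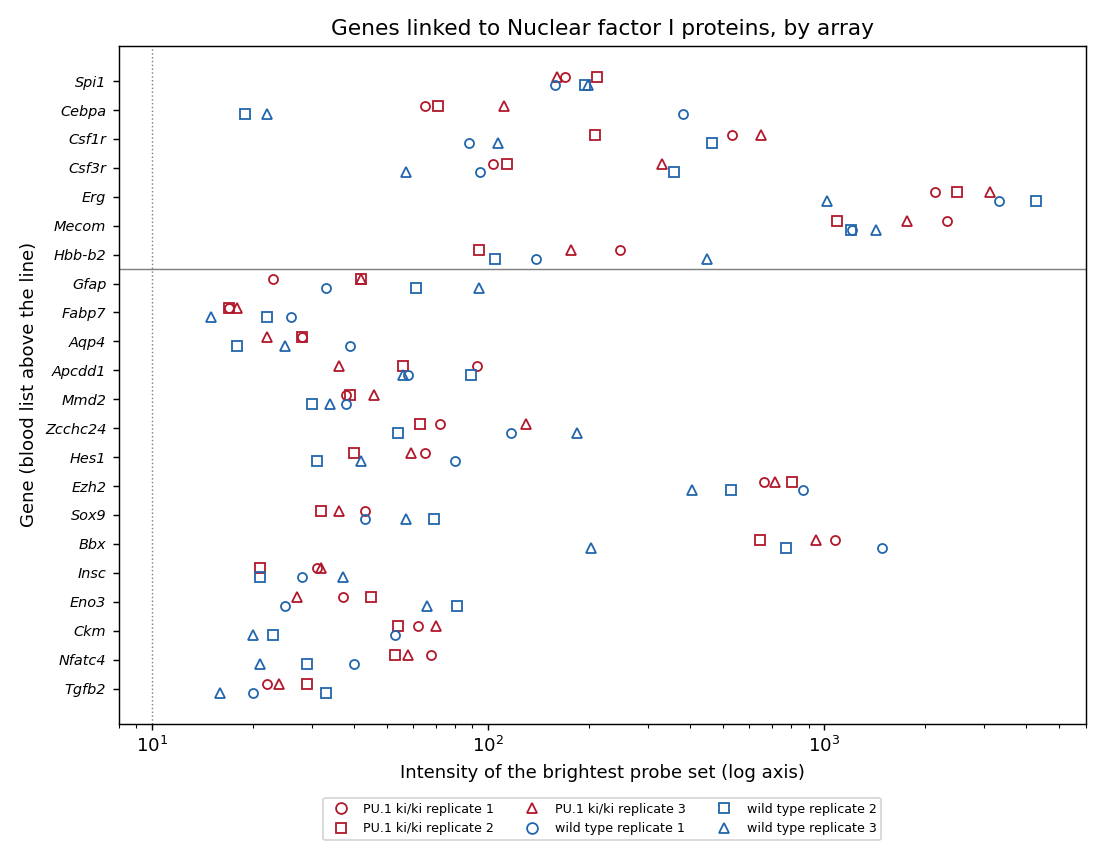
Intensity (log axis) of the brightest probe set of each gene linked to Nuclear factor I proteins, blood genes above the line and genes of other tissues below it, PU.1 ki/ki in red drawn above wild type in blue. Only Ckm and Nfatc4 have all PU.1 ki/ki arrays above all wild-type arrays.

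Of 14 HSC markers 12 were analysed here, none was below 50 on all arrays, and their summed intensity was 13386 to 16135 in PU.1 ki/ki, against 10493 to 14942 in wild type. Slamf1, which encodes the sort marker CD150, read 696, 1525 and 170 in PU.1 ki/ki, against 440, 54 and 42 in wild type (log2 difference 2.48, limma adjusted p = 0.655), and was thus dim on wild-type replicates 2 and 3. The sort marker Kit read 617, 452 and 1368 in PU.1 ki/ki, against 374, 1622 and 1001 in wild type (log2 difference -0.22), and its other probe set had the opposite sign. On the probe set given, Kit was thus not dim on those 2 arrays. Of the 12 HSC markers 9 had higher and 3, Kit among them, lower mean log2 levels in PU.1 ki/ki. Markers of other blood cells were also present, and the sums of 2 types did not overlap between groups. The 7 measured granulocyte and monocyte progenitor markers summed to 6139 to 7176 in PU.1 ki/ki, against 7694 to 17178 in wild type, and the 6 of T and NK cells to 336 to 444 in PU.1 ki/ki, against 459 to 719 in wild type. Sums of the other types overlapped between groups. Macrophage markers summed to 757 to 1627 in PU.1 ki/ki, against 311 to 848 in wild type, megakaryocyte and platelet markers to 2038 to 5915 in PU.1 ki/ki, against 1544 to 2233 in wild type, and stromal markers to 1290 to 3147 in PU.1 ki/ki, against 607 to 2391 in wild type. Erythroid markers summed to 818 to 1582 in PU.1 ki/ki, against 868 to 1910 in wild type, B cell markers to 373 to 447 in PU.1 ki/ki, against 310 to 860 in wild type, and endothelial markers to 702 to 755 in PU.1 ki/ki, against 457 to 1210 in wild type. No member of any of these lists passed the test. Of defining markers, C1qa and Adgre1 of macrophages, Cd79a, Ms4a1, Ebf1 and Blnk of B cells, Cd3g of T cells, Col3a1, Pdgfra, Lepr and Lum of stroma, and Cdh5 and Plvap of endothelium read below 50 on all arrays. Other defining markers were bright on some arrays. C1qc of macrophages read 226, 54 and 41 in PU.1 ki/ki, against 13, 35 and 29 in wild type, and Col1a1 of stroma read 253, 1137 and 38 in PU.1 ki/ki, against 30, 43 and 58 in wild type. Others were brightest on wild-type arrays. Pdgfrb of stroma read 60, 93 and 116 in PU.1 ki/ki, against 93, 427 and 352 in wild type. Cldn5 of endothelium read 52, 55 and 31 in PU.1 ki/ki, against 33, 104 and 238 in wild type. The part of such cells in the level of Nfia 1421163_a_at was not tested, and fewer cells of a type cannot be told apart from less RNA per cell.

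In each list the marker with the lowest p was as follows, and none passed the test. Tek, the angiopoietin receptor of HSCs, read 722, 730 and 523 in PU.1 ki/ki, against 321, 341 and 291 in wild type (log2 difference 1.04, limma adjusted p = 0.430). Vwf, the von Willebrand factor of platelets, read 815, 1435 and 1357 in PU.1 ki/ki, against 617, 490 and 298 in wild type (1.38, adjusted p = 0.508). C1qb, a complement chain made by macrophages, read 567, 119 and 73 in PU.1 ki/ki, against the minimum of 10 on all 3 wild-type arrays (adjusted p = 0.463). The erythroid factor Klf1 read 118, 123 and 159 in PU.1 ki/ki, against 42, 21 and 11 in wild type (2.57, adjusted p = 0.463), whereas 6 of the 8 erythroid markers had lower means in PU.1 ki/ki and the list's median log2 difference was -0.52. Among these 6 was Hba-a1, an alpha-globin, with 36, 47 and 36 in PU.1 ki/ki, against 65, 85 and 48 in wild type (-0.69, adjusted p = 0.595).

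Lower in all PU.1 ki/ki arrays was Ctsg, the granule protease cathepsin G, with 804, 822 and 806 in PU.1 ki/ki, against 3739, 1527 and 2219 in wild type (-1.52, limma adjusted p = 0.482). Cd3e, of the T cell receptor complex, read 43, 32 and 58 in PU.1 ki/ki, against 76, 98 and 150 in wild type (-1.25, adjusted p = 0.511). The B cell gene Cd79a, dim on every array, read 21, 27 and 26 in PU.1 ki/ki, against 32, 42 and 28 in wild type (-0.44, adjusted p = 0.643). All of these kept their groups apart, whereas Lum of stroma and Cldn5 of endothelium, the lowest in p of their lists, overlapped. The same contrast picked these markers and Nfia 1421163_a_at, so their separation follows largely from the choice. Markers without overlap were 1 of 12 for HSCs, 1 of 8 for megakaryocytes, 2 of 8 for macrophages and 1 of 7 for B cells. They were 1 of 6 for T and NK cells and 2 of 7, both lower, for granulocyte and monocyte progenitors. Of 8 erythroid markers 1 was higher and 1 lower without overlap. Of all named genes 12.7% had no overlap. The marker of lowest p does not stand for its list. Cd4 of T cells read 144, 53 and 100 in PU.1 ki/ki, against 58, 18 and 50 in wild type (1.26, limma adjusted p = 0.643). Markers with higher and lower mean log2 levels in PU.1 ki/ki numbered 2 and 4 for T and NK cells. They numbered 1 and 6 for B cells and for granulocyte and monocyte progenitors, and 7 and 1 for macrophages and for megakaryocytes.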

How the data were processed

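Intensities of 6 single-colour arrays were used as deposited. Per the submitters' processing notes the authors applied RMA, whose version no source used here gives. The deposited intensity values were whole numbers on a linear scale, with a minimum of 10 and a maximum of 27574, and neither the conversion from log2 nor the minimum is described. Of 45101 entries 64 control probe sets were left out, and no column was left unused. Symbols came from the platform annotation, which gave 1 symbol for 34945 probe sets, several for 932 and none for 9160. Groups and replicate numbers came from the sample titles.

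Tests used log2(intensity + 1), which understates differences of dim probe sets, with limma 3.58.1 in R 4.3.3 (lmFit and eBayes), genotype as the only term and Benjamini-Hochberg adjustment over 45037 probe sets. The number of arrays limits precision. For gene lists, the probe set with the highest mean log2 level stood for its gene, which gave 18193 genes. The fit was also run on simulated data that gave both groups of a probe set the same spread. In the real data spread was larger in wild type for 71.7% of probe sets. That run therefore does not show what the fit would miss here. The family and the lists were chosen with earlier results of these data known, so no p is given for members. Named were all members, Spi1, the linked genes and, from each marker list, the marker of lowest p. Hba-a1, C1qc, Pdgfrb, Kit and Cd4 were also named, all among the up to 2 higher and 2 lower of lowest p that the rule allows. Slamf1 and Col1a1 lie outside the rule and were chosen after their values were seen. The 5 genes nearest to the Nfia probe set with the largest difference and the 3 nearest to each gene's brightest were named too. The planned comparison of protein sequences was not made here. Start-site windows came from RefSeq (GRCm38.p6). They were at hand for 3 of the 4 genes, with none for Nfib, and all lay inside the span of their gene. Same-numbered arrays did not deviate together from their group means (correlations of -0.02, 0.02 and -0.02 for replicates 1, 2 and 3). No pairing by number was thus seen, which does not show that there was none.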

Additional observations from a re-analysis of the deposited data

How the results depend on the processing

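Under the 15 alternative settings, 0 probe sets of the whole table and 0 of the genes in the lists passed adjustment, and Spi1 stayed uncalled. These were 2 other scalings, log2 without a pseudocount, leaving out dim probe sets, a trended and robust prior, array weights, a replicate block, an unmoderated test, each array left out in turn, and wild-type replicate 1 alone. Probe sets at an unadjusted p under 0.05 numbered 3369 with the replicate block and 3731 without it. They numbered 1701 without dim probe sets, of which fewer were tested, and 2535 to 7183 with 1 array left out, the most without wild-type replicate 1. The family's median log2 difference was 0.21, 0.21 with the replicate block, 0.10 under either other scaling and 0.09 to 0.31 with 1 array left out, but 0.0098 against wild-type replicate 1 alone. Members without overlap numbered 2 as deposited and 4 with arrays centred on their medians, where 19.5% of all probe sets did not overlap. The added 2 were 1427680_a_at and 1448288_at of Nfib, which lie at the minimum, so that array medians alone set their order. The count was 5 to 6 with 1 array left out, where 18.2 to 30.3% of all probe sets did not overlap, and 12 with wild-type replicate 1 alone, where 51.5% of all probe sets lay on 1 side, since fewer values overlap less. For Nfia the brightest probe set differed by -0.61, the mean of all its probe sets by 0.61. The other 3 genes moved by less than their spread between arrays. Of the genes nearest to Nfia, 0 of 5 were shared with a correlation measure. Windows with GAGGAA numbered 3 of 6, and with the GGAA core 5. The median over the whole table was -0.11 after median-centring. Signal near the minimum limits what can be read of Nfib.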

Other observations

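The brightest probe sets of the other genes of the family had neighbours in pattern that were not group-separated. For Nfic 1429148_at, with its wide wild-type range, the nearest gene was Clec1a, a C-type lectin-like receptor, with a root mean square difference of 0.307 in centred log2 levels over the 6 arrays. It read 530, 553 and 347 in PU.1 ki/ki, against 241, 1232 and 74 in wild type, and thus was also highest on wild-type replicate 2 and lowest on wild-type replicate 3. Lrch4 and Klhl26 followed at 0.311 and 0.324 with the same extremes.

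For Nfix 1436363_a_at the nearest genes were Fbxo11, a ubiquitin ligase subunit, Dctn4, a dynactin subunit, and Wdr45, an autophagy protein, at 0.092, 0.096 and 0.117. Fbxo11 read 166, 148 and 189 in PU.1 ki/ki, against 181, 170 and 101 in wild type, and all 3 were lowest on wild-type replicate 3. For Nfib 1416293_at, a dim probe set, they were Tspyl1, Ptger4, a prostaglandin receptor, and Incenp, of the chromosomal passenger complex, at 0.071, 0.092 and 0.101. For Nfia 1446990_at they were Kctd14, Hspa12b and Rbms2, at 0.273, 0.283 and 0.299, and all 3 had their highest PU.1 ki/ki value on replicate 1 and their highest wild-type value on replicate 3. With 1 minus Pearson's correlation as the measure, 0 of 3 of these neighbours were among the nearest 3 for the probe sets of Nfia, Nfic and Nfix, and 2 of 3 for that of Nfib.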
